A study of Mus musculus with 32 samples.

Results

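The 9 genes of the naive network described here, of 31053 in the count tables, were followed through loss of naive pluripotency in E14 mouse embryonic stem cells: Esrrb, Tfcp2l1, Nr5a2, Nr0b1, Prdm14, Tbx3, Zfp42, Dppa3 and Tcl1. They were taken by name, through their Ensembl identifiers, and each passed the filter on low counts. Cells were kept in N2B27 medium with 2iL or with 2i. The 2i inhibitors were 3 uM CHIR99021, which blocks the kinase GSK3, and 1 uM PD0325901, which blocks the kinase MEK, and 2iL held the cytokine LIF in addition. The supplements were then withdrawn by a change to plain N2B27. Libraries of the 2iL course were taken at 0, 24, 36, 48, 60, 72, 84 and 96 h. Those of the 2i course were taken at 0, 12, 24, 36, 48, 60, 72 and 84 h. Each of the 16 groups had 2 libraries. One of the 2 libraries of 2iL at 36 h held 7298 counts and was left out, so that group is 1 library and 31 were used. All groups are 1 cell line, and the labels do not say whether replicates came from separate cultures, and a p-value here reflects no more than the spread of these samples.

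Naive embryonic stem cells hold a network of transcription factors that sustain one another and are fed by 3 inputs. Inhibition of GSK3 stabilises beta-catenin and relieves repression by TCF7L1, with Esrrb as a main target. LIF acts through STAT3, with Tfcp2l1 as a main target, and inhibition of MEK blocks the ERK signal that drives exit. The network is dismantled before cells become competent for lineage choice. In bulk RNA, fewer cells that express a gene and less RNA per cell cannot be told apart.

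The 31 libraries held 1122648 to 3438514 counts (median 1980949), and 3 counts made 0.873 to 2.67 CPM (counts per 1000000 counts) in them. Where a group held 0 counts, its bound set 3 counts over its libraries together, or 0.61 to 1.03 CPM as scaled below. Levels below are CPM scaled with TMM factors, which assume that most genes do not change. Reads came from the 3' end of transcripts, so levels are not divided by length. Markers of the labelled cells (Pou5f1, Sox2, Nanog, Esrrb and Zfp42, the last 2 also members) summed to 214 to 1430 CPM in every library. The sums were 1395 to 1430 CPM at 2i 0 h and 317 to 320 CPM at 84 h. In 2iL they were 1288 to 1428 CPM at 0 h and 350 to 380 CPM at 96 h. Esrrb, Zfp42 and Nanog held 2.00, 1.23 and 8.60 CPM at 2i 84 h and 2.54, 1.27 and 17.8 CPM at 2iL 96 h. Most of the late sums thus came from Pou5f1 and Sox2. Summed markers of other cell types reached at most 17.4 CPM for primitive endoderm, 46.3 for trophoblast, 70.6 for germ cells, 28.3 for fibroblasts and 7.03 for cells like the 2-cell embryo, where Tcstv1 was at 0 throughout. Within a pair of libraries, log2 CPM differed with an SD of 0.432 to 0.737 over 11849 tested genes. Such an SD cannot say which library of a pair is apart. There were 4 libraries treated as standing apart from their partners, and results were also computed without them. In the 2iL course they are replicate 1 at 48 h, replicate 2 at 84 h and replicate 1 at 96 h, with SDs of 0.628, 0.690 and 0.665 in their pairs. In the 2i course it is replicate 2 at 12 h (0.736), and the 2iL 24 h pair, with neither library set apart, had 0.737. The 10 most abundant genes took 35.5% and 43.5% of counts at 2i 12 h and 30.6% and 30.5% at 2iL 24 h. The gene Gm42418 had 292934 and 367228 CPM by library size at 2i 12 h, against 139646 and 161221 at 0 h. At 2iL 24 h it had 239044 and 246936, against 88559 and 103629 at 0 h. In 2i 84 h replicate 2 it had 236293, and the 10 genes took 29.7%. With scaling by library size in place of TMM, the median log2 fold change of all genes against 0 h was -0.25 at 2iL 24 h (-0.06 with TMM), -0.34 at 2i 12 h (-0.0038 with TMM) and 0.18 at 2i 84 h (0.01 with TMM). It changed the split of calls to 336 higher and 1609 lower at 2i 12 h (721 and 662 with TMM), 400 and 1313 at 2iL 24 h (655 and 830) and 2492 and 1340 at 2i 84 h (2127 and 1941). Fold changes below are relative to the TMM scale, and no called member reversed its sign under any scaling tried.

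Promoter windows of 300 bases around the annotated start were at hand for 6 of the 9 members (8 windows, RefSeq, GRCm38.p6). 3 are printed, since Zfp42 and Tcl1 held their level through 12 h of the 2i course and fell together by 24 h, whereas Tfcp2l1 fell early in both courses. In the 2iL course Zfp42 and Tcl1 parted, at 122% and 44.3% of 0 h at 24 h. Sequences run 5′ to 3′ on the gene's strand, and capitals mark motif matches on either strand.
Zfp42 (chr8:43306960-43307259, minus strand): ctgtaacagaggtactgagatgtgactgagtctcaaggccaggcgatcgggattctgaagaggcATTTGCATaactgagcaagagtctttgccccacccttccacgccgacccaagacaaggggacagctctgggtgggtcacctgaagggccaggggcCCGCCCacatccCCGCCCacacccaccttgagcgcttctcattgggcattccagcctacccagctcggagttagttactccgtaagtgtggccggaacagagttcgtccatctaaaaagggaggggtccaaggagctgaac
Tcl1 (chr12:105222688-105222987, minus strand): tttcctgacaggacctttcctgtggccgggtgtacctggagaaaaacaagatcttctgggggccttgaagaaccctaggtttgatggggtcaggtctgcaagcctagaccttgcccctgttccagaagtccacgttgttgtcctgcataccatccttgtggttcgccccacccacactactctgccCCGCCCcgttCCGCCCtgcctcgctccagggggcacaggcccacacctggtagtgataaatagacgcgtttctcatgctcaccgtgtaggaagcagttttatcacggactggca
Tfcp2l1 (chr1:118627695-118627994, plus strand): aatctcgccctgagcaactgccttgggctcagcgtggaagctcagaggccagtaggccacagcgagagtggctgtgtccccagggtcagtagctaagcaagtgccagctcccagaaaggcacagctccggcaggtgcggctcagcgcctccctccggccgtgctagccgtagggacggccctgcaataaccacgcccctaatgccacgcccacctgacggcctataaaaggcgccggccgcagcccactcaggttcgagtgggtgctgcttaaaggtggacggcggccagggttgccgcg
The octamer ATGCAAAT, the letters that OCT4 and other POU factors bind, matched in Zfp42 at -186 from the start, and 1.74% of 32851 mouse windows of this length hold it. The GC box GGGCGG matched at -91 and -79 in Zfp42 and at -64 and -54 in Tcl1, in none of the other 6 member windows, and in 35.7% of all windows. TTCNNNGAA, the STAT letters, matched once, in the first Esrrb window at -178, and 8.30% of windows hold it. The SOX letters ATTGTT matched in that Esrrb window at -137 (10.7% of windows). AAGGTCA, bound by ESRRB and NR5A2 (4.72% of windows), ATCAAAG, the TCF core (3.73%), and the E box CACGTG (7.15%) matched in 0 of the 8 windows. The motifs and the windows printed were chosen after the levels were known. A match describes letters and not a site in use, and no match says only that these letters are not in the window.

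Before withdrawal, LIF went with a higher level of 3 members, and none was lower in 2iL. Tcl1 (ENSMUSG00000041359, chromosome 12, 105216750 to 105222793), a coactivator of the kinase AKT, stood at 364 and 372 CPM in 2iL and at 78.9 and 71.7 CPM in 2i. Its log2 fold change was 2.29 ± 0.24 (SE; edgeR quasi-likelihood test, adjusted p = 5.7e-08). Tfcp2l1 (ENSMUSG00000026380, chromosome 1, 118627945 to 118685168), a factor of the CP2 family, stood at 935 and 971 CPM in 2iL and at 354 and 377 CPM in 2i (1.38 ± 0.20, adjusted p = 1.1e-05, edgeR). Short annotated genes lie within it (Gm22094, Gm23497 and Gm28882). Tbx3 (ENSMUSG00000018604, chromosome 5, 119670669 to 119684724), a T-box factor, had 243 and 206 CPM in 2iL and 120 and 106 CPM in 2i (0.99 ± 0.21, adjusted p = 0.0016, edgeR). In all 3 the pairs did not overlap. Tbx3 overlaps the antisense gene Tbx3os1, and whether counting used the strand is not stated, so the 2 cannot be told apart.

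Of the 11849 tested genes, 4.69% were higher and 3.78% lower in 2iL, against 3 and 0 of the 9 members. The other 6 members did not pass the test. Esrrb (ENSMUSG00000021255, chromosome 12, 86361117 to 86521628), an orphan nuclear receptor, had 183 and 183 CPM in 2iL and 133 and 122 CPM in 2i (0.52 ± 0.23, adjusted p = 0.19, edgeR). It passed in a fit of the 0 h libraries alone (adjusted p = 0.0016) and in edgeR without the 4 libraries above (adjusted p = 0.019). Nr5a2, a nuclear receptor of the LRH-1 type, had 155 and 151 CPM in 2iL and 160 and 160 CPM in 2i. Zfp42, the zinc finger protein REX1 whose reporters mark the naive state, had 185 and 169 CPM in 2iL and 157 and 135 CPM in 2i. Dppa3, the STELLA protein that guards methylation in the early embryo, had 36.2 and 40.4 CPM in 2iL and 40.6 and 45.8 CPM in 2i. Among these 3 the pairs did not overlap, with Zfp42 above and Nr5a2 and Dppa3 below in 2iL, by less than the test asks. Nr0b1, a receptor-like corepressor also called DAX1, had 11.8 and 8.44 CPM in 2iL and 5.41 and 5.51 CPM in 2i. Prdm14, a PR-domain factor that restrains FGF receptor signalling and DNA methylation, had 7.57 and 11.1 CPM in 2iL and 8.12 and 1.65 CPM in 2i. The call for Tbx3 was lost without 2iL 0 h replicate 1 or 2i 0 h replicate 2 (adjusted p = 0.052 and 0.055, edgeR).

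**Figure D1:**
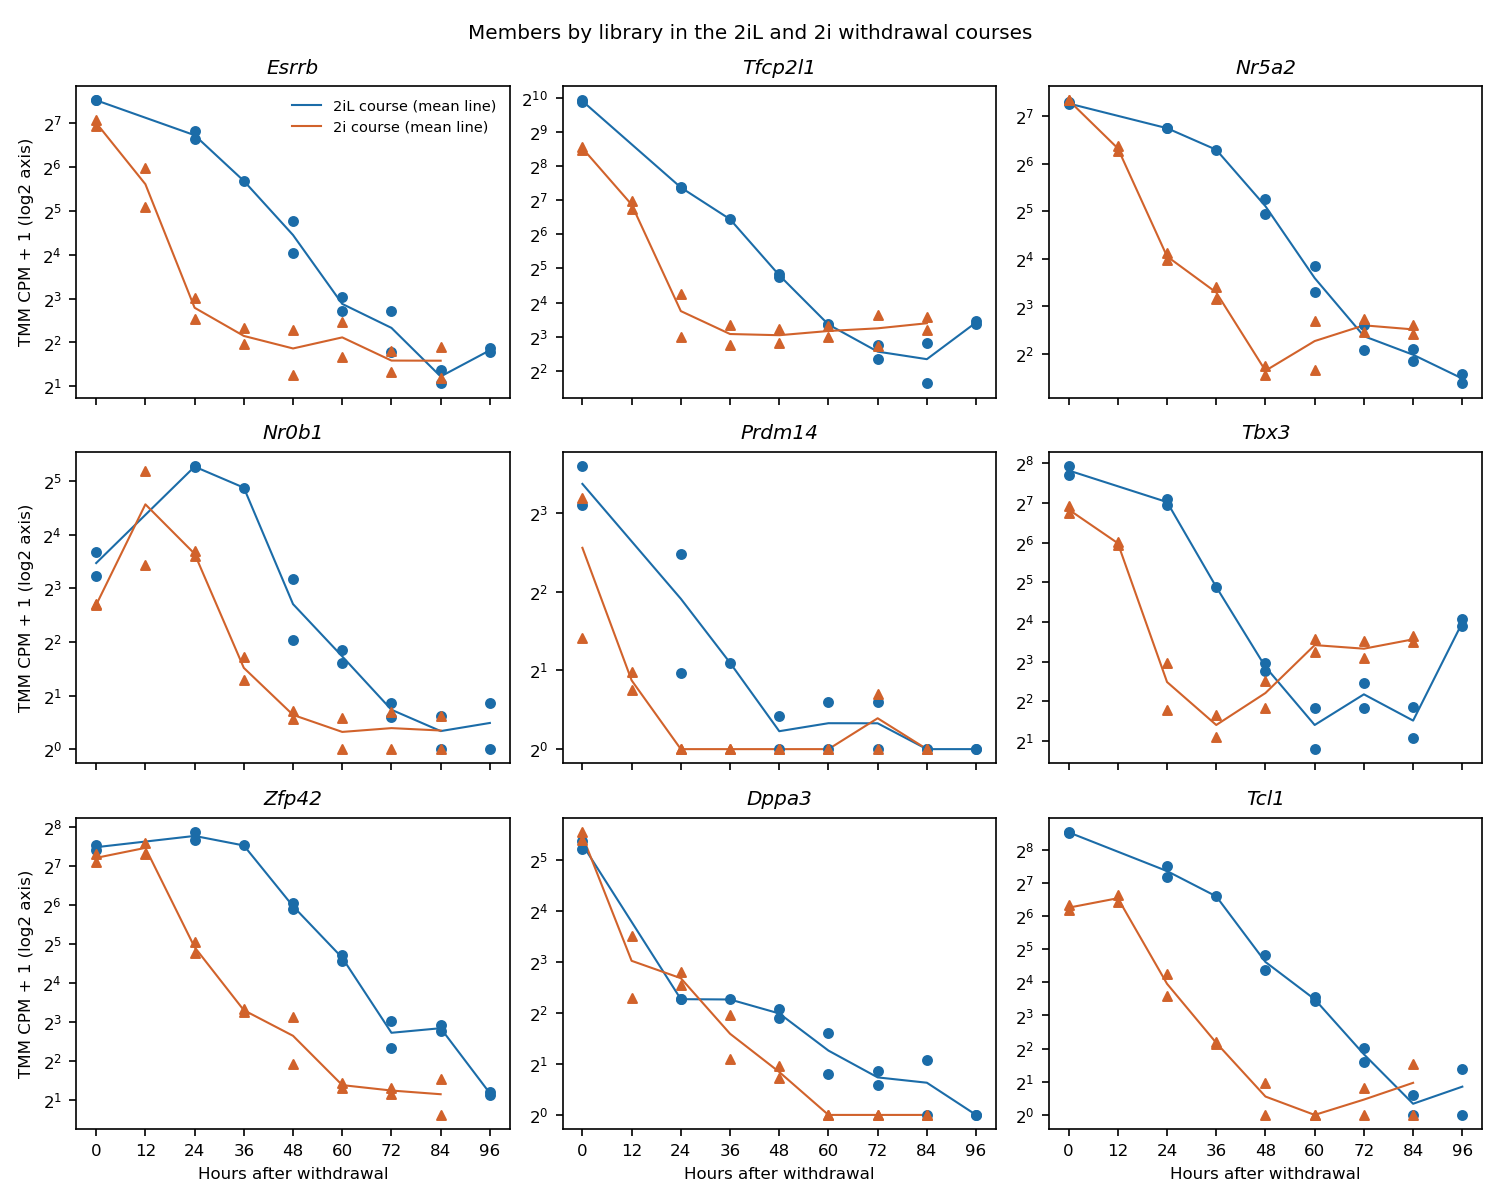
Each panel is 1 member, with hours after withdrawal on the x axis and TMM-scaled CPM + 1 on a log2 axis. Blue circles are libraries of the 2iL course, orange triangles libraries of the 2i course, and lines join group means. Prdm14 has 83 counts in all 31 libraries, and Nr0b1 is the member whose early rise passed the test, at 38.0 and 37.3 CPM at 24 h of the 2iL course.

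All 9 members passed the joint test over the 7 times of each course, where 58.5% of all tested genes in the 2iL course and 54.2% in the 2i course did. The Prdm14 result in the 2i course rested on 2i 0 h replicate 1 (adjusted p = 0.17 without it, edgeR). All 9 were lower at 96 h of 2iL withdrawal than at 0 h (20.1% of tested genes were), and all 9 were lower at 84 h of 2i withdrawal (16.4%). The members' median log2 fold change was -6.15 at 2iL 96 h and -5.27 at 2i 84 h with groups of 0 counts set at their bound, beside 0.01 over all tested genes in both. At 2iL 96 h the members' means lay between 0 and 6.62% of 0 h, and at 2i 84 h between 0 and 9.59%. Tbx3 held the highest share in both.

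Members that lost all or nearly all counts stand out. Dppa3 had 0 counts at 96 h of the 2iL course, against 177 at 0 h, which makes it at least 50.8-fold lower. It had 0 counts at 84 h of the 2i course, against 188 at 0 h, which makes it at least 48.5-fold lower. Prdm14 had 0 counts at 96 h of the 2iL course and 43 at 0 h, so at least 12.3-fold lower. It had 0 counts at 84 h of the 2i course and 24 at 0 h, so at least 6.19-fold lower. Tcl1 had 4 counts at 96 h of the 2iL course, against 1703 at 0 h, or 0.219% of its 0 h mean, and had 1 count at 84 h. Floors and intervals cover counting error only. The call for Prdm14 at 2i 84 h rested on 2i 0 h replicate 1 (adjusted p = 0.13 without it) and that for Nr0b1 on 2i 84 h replicate 1 (adjusted p = 0.051 without it).

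**Figure D2:**
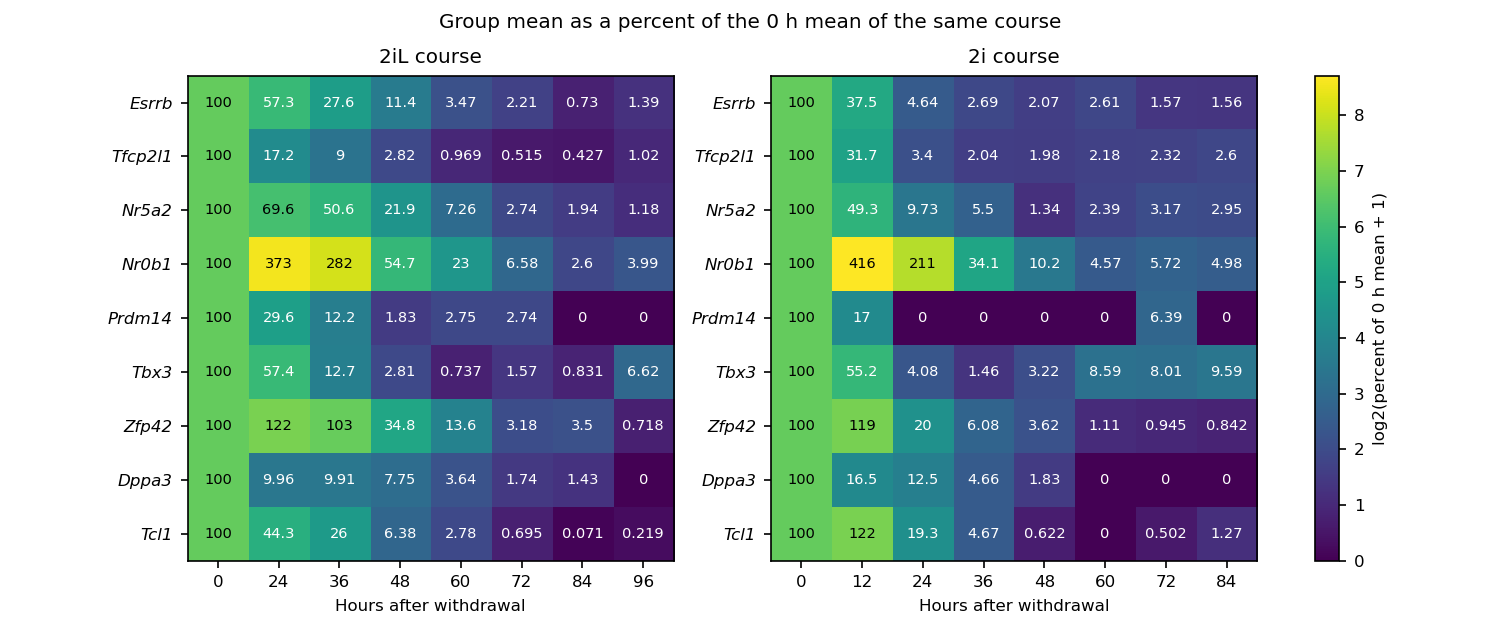
Rows are members and columns hours after withdrawal, with the 2iL course on the left and the 2i course on the right. Cells give the group mean as a percent of the 0 h mean of the same course, and colour is its log2 after adding 1. At 24 h, Zfp42 was at 122% in the 2iL course and 20% in the 2i course.

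The first sampled time after 2i withdrawal, 12 h, already separated the members. Of the 9 members, 5 fell (5.59% of all tested genes did), 1 rose (6.08%) and 3 did not pass the test. Dppa3 fell furthest among those 5, with 10.3 and 3.92 CPM at 12 h, against 40.6 and 45.8 CPM at 0 h (-2.51 ± 0.39, adjusted p = 8.7e-05, edgeR). Tfcp2l1 had 106 and 125 CPM at 12 h, against 354 and 377 CPM at 0 h (-1.66 ± 0.21, adjusted p = 2.3e-06, edgeR). Esrrb had 62.5 and 33.3 CPM at 12 h, against 133 and 122 CPM at 0 h (-1.38 ± 0.26, adjusted p = 0.00042, edgeR). In these 3 the pairs did not overlap. Nr5a2 had 81.7 and 76.3 CPM at 12 h, against 160 and 160 CPM at 0 h (-1.02 ± 0.19, adjusted p = 0.00046, edgeR). Tbx3 had 63.8 and 60.7 CPM at 12 h, against 120 and 106 CPM at 0 h (-0.86 ± 0.23, adjusted p = 0.012, edgeR). These pairs did not overlap either, though the Tbx3 call was lost without 2i 0 h replicate 1 or either 12 h library (adjusted p = 0.13, 0.064 and 0.077, edgeR).

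Nr0b1 (ENSMUSG00000025056, chromosome X, 86191764 to 86195947) was the member that rose, at 35.7 and 9.79 CPM at 12 h against 5.41 and 5.51 CPM at 0 h (2.11 ± 0.48, adjusted p = 0.0036, edgeR). The 12 h libraries differ widely for it, and without replicate 1 the change was 0.84 (adjusted p = 0.47, edgeR). Zfp42 had 192 and 158 CPM at 12 h, against 157 and 135 CPM at 0 h (0.26 ± 0.19, adjusted p = 0.42, edgeR). Tcl1 had 85.1 and 98.8 CPM at 12 h, against 78.9 and 71.7 CPM at 0 h (0.28 ± 0.25, adjusted p = 0.54, edgeR). The Zfp42 and Tcl1 libraries at 12 h all lay above those at 0 h, but by less than the test asks. Prdm14 had 2 counts at 12 h against 24 at 0 h, so the 0 h level was 6.76 times that at 12 h (95% counting interval 1.68 to 59.0). The 12 h libraries carry the high share of abundant transcripts given above, and its part in these changes was not tested.

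The step from 12 to 24 h took 6 of the 9 members down (5.73% of tested genes fell in that step). Zfp42 had 26.1 and 32.3 CPM at 24 h, against 192 and 158 CPM at 12 h (-2.57 ± 0.21, adjusted p = 2e-09, edgeR). Tcl1 had 11.1 and 17.9 CPM at 24 h, against 85.1 and 98.8 CPM at 12 h (-2.62 ± 0.29, adjusted p = 2.9e-07, edgeR). Their difference in that step was not tested. Esrrb, Tfcp2l1, Nr5a2 and Tbx3 fell by 2.35 to 3.83 on the log2 scale in that step. By 24 h, 8 of 9 members were lower than at 0 h (9.46% of tested genes), and by 36 h the same number (9.39%). Nr0b1, at 11.1 and 11.9 CPM at 24 h, was the exception at 24 h (1.07 ± 0.49, adjusted p = 0.13, edgeR). At 36 h it had 2.28 and 1.44 CPM and still did not pass the test against 0 h. Prdm14 had 0 counts from 24 h on, except 1 at 72 h, with a level at least 8.94-fold lower at 24 h. Its 24 h call needed both 2i 0 h replicate 1 and 2i 24 h replicate 2 (adjusted p = 0.14 and 0.052 without them, edgeR).

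After 2iL withdrawal the first sampled time was 24 h. By then 5 of 9 were lower than at 0 h (7.0% of tested genes), 1 was higher (5.53%) and 3 did not pass. Dppa3 had 3.80 and 3.83 CPM at 24 h, against 36.2 and 40.4 CPM at 0 h (-3.31 ± 0.46, adjusted p = 1.1e-05, edgeR). Tfcp2l1 had 161 and 168 CPM at 24 h, against 935 and 971 CPM at 0 h (-2.54 ± 0.21, adjusted p = 6.9e-10, edgeR). Tcl1 had 182 and 144 CPM at 24 h, against 364 and 372 CPM at 0 h (-1.17 ± 0.23, adjusted p = 0.00079, edgeR). Each of these pairs lay wholly below its 0 h pair. Esrrb had 98.1 and 112 CPM at 24 h, against 183 and 183 CPM at 0 h (-0.81 ± 0.24, adjusted p = 0.023, edgeR). Tbx3 had 122 and 135 CPM at 24 h, against 243 and 206 CPM at 0 h (-0.80 ± 0.21, adjusted p = 0.011, edgeR). Both calls were lost when only the 2iL course was fitted (adjusted p = 0.072 for Esrrb and 0.056 for Tbx3), and the Esrrb call also by DESeq2 (adjusted p = 0.093). Of single libraries, leaving out any 1 of the 4 compared ended the Esrrb call (adjusted p = 0.076 to 0.15), and 2iL 0 h replicate 1 or 24 h replicate 1 ended the Tbx3 call (0.13 and 0.095).

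Nr0b1 had 38.0 and 37.3 CPM at 24 h of the 2iL course, against 11.8 and 8.44 CPM at 0 h (1.89 ± 0.42, adjusted p = 0.0027, edgeR). It was still at 28.5 CPM in the 1 library at 36 h. The 24 h call did not hold with 2iL 0 h replicate 2 left out (adjusted p = 0.056, edgeR). Zfp42 had 199 and 233 CPM at 24 h and 182 CPM at 36 h, against 185 and 169 CPM at 0 h, and passed the test at neither time. Nr5a2 had 106 and 106 CPM at 24 h, against 155 and 151 CPM at 0 h (-0.52 ± 0.19, adjusted p = 0.063, edgeR). By 36 h Nr5a2 had joined the falling members and 6 of 9 were lower (5.92% of tested genes). By 48 h 8 of 9 were lower (14.7%), with Nr0b1 at 3.08 and 7.98 CPM as the exception.

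Between 36 and 48 h, 7 of 9 members fell, where 0.405% of tested genes did, although 36 h is 1 library, assumed in the test to vary like the other groups. Zfp42 had 58.2 and 64.6 CPM at 48 h, against 182 CPM at 36 h (-1.57 ± 0.22, adjusted p = 0.00033, edgeR). Nr0b1 had 3.08 and 7.98 CPM at 48 h, against 28.5 CPM at 36 h (-2.38 ± 0.50, adjusted p = 0.011, edgeR). Tbx3 had 5.82 and 6.78 CPM at 48 h, against 28.5 CPM at 36 h (-2.17 ± 0.35, adjusted p = 0.0011, edgeR). Without 2iL 48 h replicate 1 the calls for Esrrb, Nr0b1 and Nr5a2 in this step were lost (adjusted p = 0.37, 0.17 and 0.058, edgeR). DESeq2 called neither Esrrb nor Nr0b1 (adjusted p = 0.084 and 0.062), the 2iL course fitted by itself neither Esrrb nor Nr5a2 (0.13 and 0.059), and the Esrrb call was also lost without the 4 libraries (0.075).

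The time at which a member's mean first crossed 50% of its 0 h mean, by a straight line in CPM between sampled times, orders the losses. It is a description with no test, and its error is a jackknife SE over libraries, itself imprecise with 2 per group. It does not cover the 36 h group of the 2iL course, which is 1 library, so the errors of members that cross near 36 h are too small. Without that library Nr5a2 crossed at 33.85 h, Zfp42 at 43.82 h, Tbx3 at 27.26 h and Esrrb at 27.84 h in the 2iL course. In the 2iL course the order was Dppa3 (13.3 ± 0.08 h), Tfcp2l1 (14.5 ± 0.08 h), Prdm14 (17.0 ± 5.25 h), Tcl1 (21.6 ± 2.07 h), Tbx3 (25.99 ± 1.27 h), Esrrb (26.96 ± 1.17 h), Nr5a2 (36.3 ± 0.32 h), Zfp42 (45.3 ± 0.46 h) and Nr0b1 (49.8 ± 4.38 h). Neighbours in that order differed by more than 2 SE of their gap only for Dppa3 and Tfcp2l1, Esrrb and Nr5a2, and Nr5a2 and Zfp42. The Dppa3 libraries at 24 h held 5 and 4 counts, at nearly equal levels (3.80 and 3.83 CPM). Its SE is thus too small for such counts, and the first of these gaps is less firm than it looks. The first 4 crossings lie between 0 and 24 h, where the 2iL course has no sample, so their times rest on the straight line. On a line in log2(CPM + 1) Dppa3 crossed at 7.64 h and Tfcp2l1 at 9.48 h.

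In the 2i course the order was Dppa3 (7.18 ± 0.65 h), Prdm14 (7.23 ± 2.71 h), Tfcp2l1 (8.78 ± 0.36 h), Esrrb (9.60 ± 1.83 h), Nr5a2 (11.8 ± 0.41 h), Tbx3 (13.2 ± 0.79 h), Zfp42 (20.4 ± 0.65 h), Tcl1 (20.4 ± 0.56 h) and Nr0b1 (34.9 ± 0.48 h). The gaps over 2 SE were those between Tbx3 and Zfp42 and between Tcl1 and Nr0b1. Dppa3 and Prdm14 were 0.05 h apart and Zfp42 and Tcl1 0.04 h apart, and both pairs changed places without the 4 libraries that stand apart. Prdm14 crossed at 12.08 h without 2i 0 h replicate 1. With the 12 h libraries left out, Dppa3 crossed at 13.72 h, after Prdm14, Tfcp2l1, Tbx3, Esrrb and Nr5a2 (12.0 to 13.29 h). Nr0b1 came last in both courses, though in the 2iL course its gap to Zfp42 was 4.47 ± 4.4 h. Its crossing was measured against 0 h means that it first exceeded, at 373% at 2iL 24 h and 416% at 2i 12 h.

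**Figure D3:**
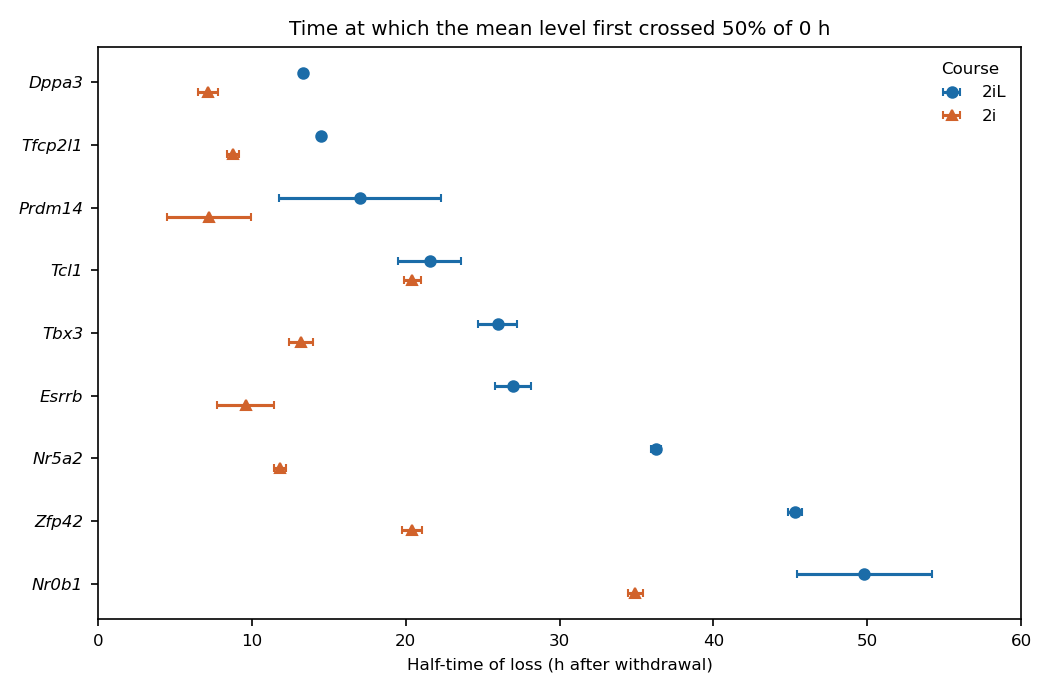
For each member, the time in hours after withdrawal at which the group mean first crossed 50% of 0 h, with bars of ± 1 jackknife SE. Blue circles are the 2iL course, drawn above the orange triangles of the 2i course. Zfp42 crossed at 45.3 h in 2iL and 20.4 h in 2i, and Tcl1 at 21.6 h and 20.4 h.

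The crossing came later in the 2iL course for all 9 members, by 24.9 ± 0.80 h for Zfp42, 24.4 ± 0.52 h for Nr5a2, 17.4 ± 2.17 h for Esrrb, 14.9 ± 4.41 h for Nr0b1, 12.8 ± 1.5 h for Tbx3, 9.81 ± 5.91 h for Prdm14, 6.15 ± 0.65 h for Dppa3, 5.72 ± 0.37 h for Tfcp2l1 and 1.13 ± 2.14 h for Tcl1. For Prdm14 and Tcl1 the lag was under 2 SE, and the errors for Nr5a2, Zfp42, Tbx3 and Esrrb leave out the single 36 h library. The 2i course has a 12 h sample that the 2iL course lacks. With the 12 h libraries left out, the lag was 30.3 h for Zfp42, 22.98 h for Nr5a2, 14.4 h for Esrrb, 14.9 h for Nr0b1, 13.5 h for Tbx3, 6.68 h for Tcl1, 5.04 h for Prdm14 and 2.08 h for Tfcp2l1, and Dppa3 turned to -0.39 h.

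The difference between courses in the change from 0 h was tested over the 6 shared times (24 to 84 h). It passed for 7 of 9 members, where 23.8% of tested genes passed. These were Tbx3, Nr5a2, Zfp42, Tfcp2l1, Esrrb and Tcl1 (adjusted p from 6.9e-12 to 0.00039, edgeR) and Dppa3, at the threshold (adjusted p = 0.049). The Dppa3 call was lost by DESeq2 (adjusted p = 0.14) and in most single-library omissions. Nr0b1 (adjusted p = 0.12) and Prdm14 (0.41) did not pass, and Nr0b1 passed without the 4 libraries above (0.0081) or without 2i 12 h replicate 2 (0.049).

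At 24 h, levels themselves were higher in 2iL for 8 of 9 members (5.68% of tested genes), all but Dppa3, which had 3.80 and 3.83 CPM in 2iL and 4.83 and 5.97 CPM in 2i. Since 3 members already differed at 0 h, the change from 0 h is the stricter measure, and it was higher in 2iL for 5 of 9 (1.79% of tested genes). For Tbx3 the log2 change in 2iL minus that in 2i was 3.88 ± 0.38 at 24 h (adjusted p = 8.6e-08, edgeR). For Esrrb it was 3.58 ± 0.40 (adjusted p = 9.2e-07, edgeR), for Nr5a2 2.84 ± 0.28 (1.2e-07) and for Zfp42 2.6 ± 0.28 (3.9e-07). For Tfcp2l1 it was 2.40 ± 0.33 (adjusted p = 2.9e-05, edgeR). The Prdm14 level call at 24 h rests on 0 counts in 2i and was lost by DESeq2 (adjusted p = 0.11), and that of Nr0b1 was lost without either 2i 24 h library (0.058 and 0.053).

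**Figure D4:**
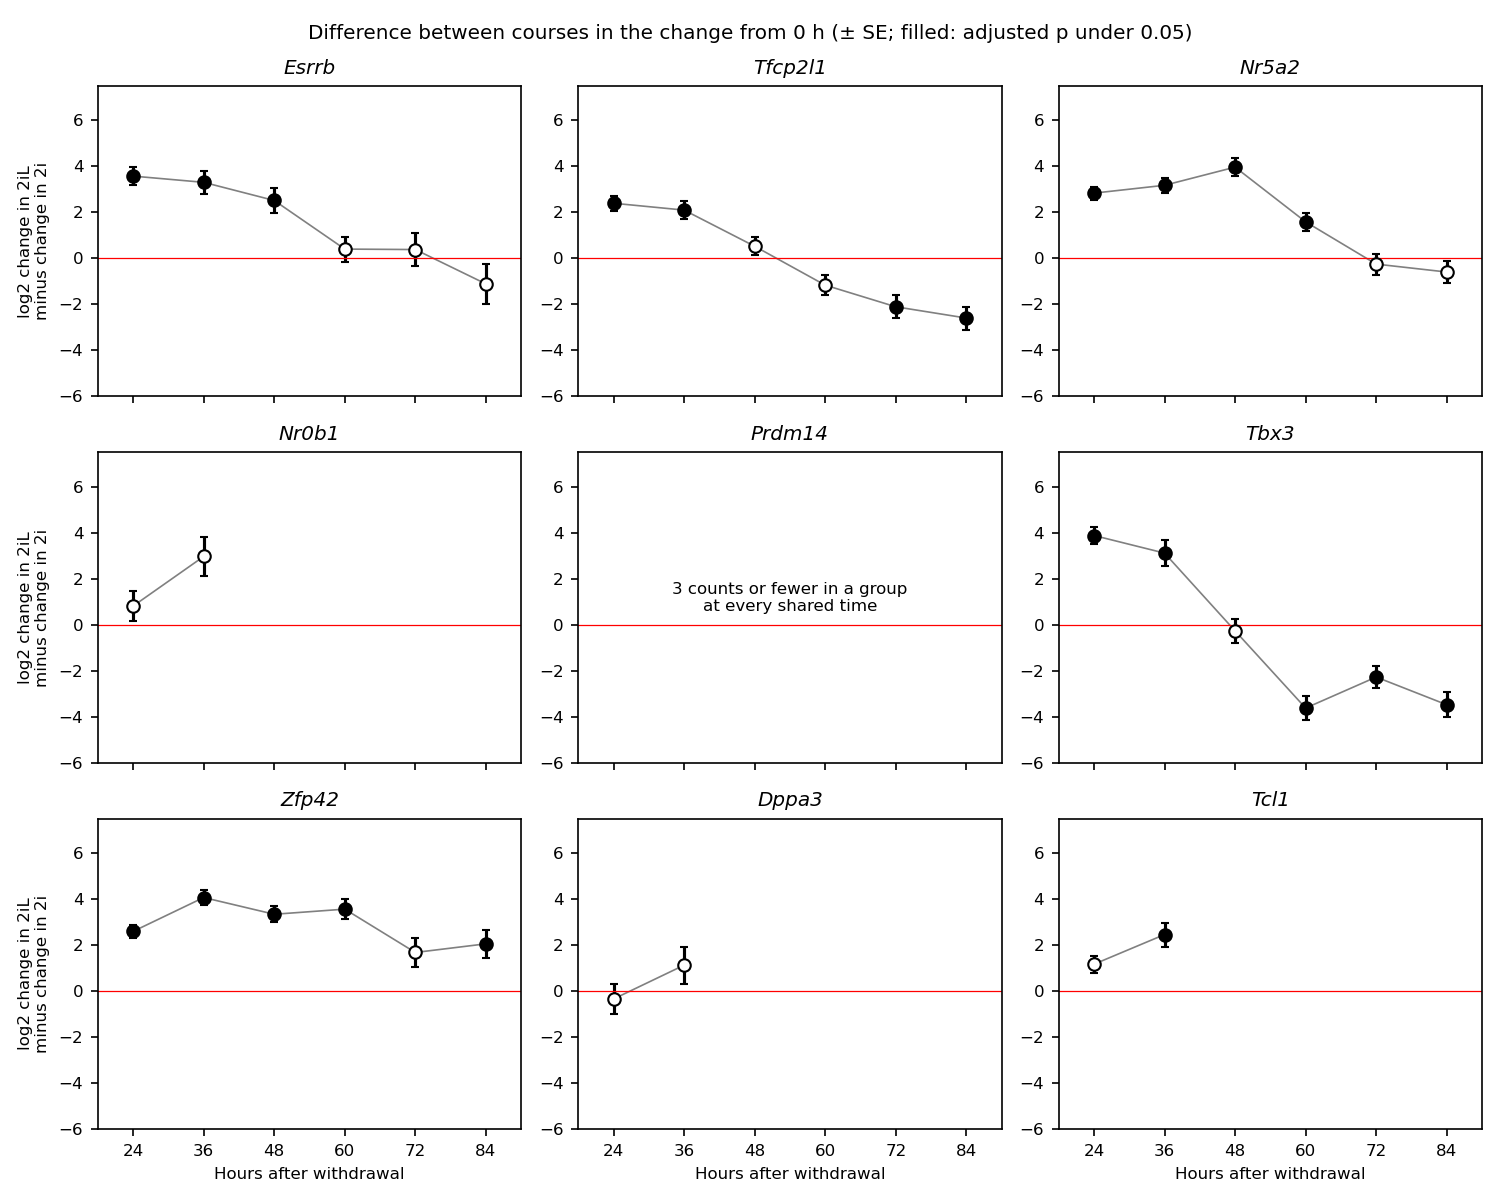
The y axis is the log2 change from 0 h in the 2iL course minus that in the 2i course, and the x axis hours after withdrawal. Bars are ± 1 SE, filled points passed at adjusted p under 0.05, and times with 3 counts or fewer in a group are not drawn. Tbx3 and Tfcp2l1 passed on both sides of 0, at 3.88 and 2.40 at 24 h and -3.48 and -2.59 at 84 h. Esrrb and Nr5a2 also lie below 0 at 84 h, at -1.11 and -0.59, where neither passed, and Zfp42 lies above 0 at each time.

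The difference passed the test in both directions, at different times, for Tfcp2l1 and Tbx3. Tfcp2l1 had 5.72 and 4.09 CPM at 72 h of the 2iL course and 5.63 and 11.3 CPM at 72 h of the 2i course, levels that did not differ by the test (adjusted p = 0.33, edgeR). Its change from 0 h was lower in 2iL by -2.10 ± 0.50 at 72 h (adjusted p = 0.0053, edgeR) and by -2.59 ± 0.50 at 84 h (0.00061), set against its higher start. The 72 h call did not hold with 2i 72 h replicate 2 left out (adjusted p = 0.17). For Zfp42 the difference was 4.07 ± 0.34 at 36 h (adjusted p = 6.9e-09, edgeR), 3.57 ± 0.45 at 60 h (1.3e-06) and 2.06 ± 0.62 at 84 h (0.027), and the last was lost by DESeq2 (adjusted p = 0.10).

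Tbx3 returned late in both courses. In the 2iL course it had 0.74 and 2.56 CPM at 60 h, 4.50 and 2.56 CPM at 72 h, 2.63 and 1.10 CPM at 84 h and 13.9 and 15.7 CPM at 96 h. The step from 84 to 96 h was 2.95 ± 0.46 (adjusted p = 0.0002, edgeR), and Tbx3 was the 1 member of 9 that rose in it (1.97% of tested genes did). In the same step 1 member fell, Zfp42 (2.37% of tested genes), a call that was lost by DESeq2 (adjusted p = 0.052). In the 2i course Tbx3 had 1.14 and 2.16 CPM at 36 h, 2.58 and 4.69 CPM at 48 h, 10.9 and 8.48 CPM at 60 h, 7.5 and 10.6 CPM at 72 h and 10.2 and 11.4 CPM at 84 h. No single step of that return passed, and the contrast of 84 with 36 h, chosen after the values were seen, was 2.72 ± 0.54 (adjusted p = 0.00029, edgeR), again for 1 member of 9 (17.5% of tested genes rose). Summed markers of fibroblasts, primitive endoderm and trophoblast rose in the same spans, without overlap except for primitive endoderm in the 2iL course. Germ cell markers overlapped in 2iL, at 59.1 to 69.7 CPM at 96 h and 51.0 to 64.2 CPM at 84 h. In the 2i course they fell, to 19.8 to 20.1 CPM at 84 h from 36.0 to 42.8 CPM at 36 h. Markers of cells like the 2-cell embryo summed to 0 to 0.664 CPM at 2iL 96 h and 0 at 84 h. They fell to 0 at 2i 84 h from 2.16 to 3.99 CPM at 36 h. The 5 fibroblast markers summed to 18.1 to 20.6 CPM at 2iL 96 h (Col3a1 at 0), against 10.5 to 14.3 CPM at 84 h and 1.78 to 4.62 CPM at 0 h (Postn at 0). In the 2i course they summed to 15.3 to 28.3 CPM at 84 h, against 3.99 to 9.37 CPM at 36 h (Postn at 0). The 7 primitive endoderm markers summed to 7.97 to 11.3 CPM at 2iL 96 h (Gata4 and Sox7 at 0), against 5.49 to 9.47 CPM at 84 h (Gata4, Sox7 and Pdgfra at 0). In the 2i course they summed to 13.4 to 14.7 CPM at 84 h (Sox7 at 0), against 5.04 to 6.28 CPM at 36 h (Gata4, Sox17, Sox7 and Pdgfra at 0). The 6 trophoblast markers summed to 11.3 to 13.3 CPM at 2iL 96 h (Cdx2 at 0), against 7.13 to 7.36 CPM at 84 h (Cdx2 and Hand1 at 0). In the 2i course they summed to 34.3 to 45.3 CPM at 84 h (Krt7 at 0), against 10.8 to 13.7 CPM at 36 h. At 0 h the trophoblast markers had summed to 37.5 to 46.3 CPM in 2i (Krt7 and Hand1 at 0). Their sum at 2iL 0 h was 20.4 to 24.8 CPM (Hand1 at 0). Of the 12 other naive genes counted below, Tet2 rose from 36 to 84 h of the 2i course (adjusted p = 0.025, edgeR) and 6 fell. Nanog, Klf4 and Klf5 did not pass. Their means were 2.76%, 9.42% and 15.3% of 0 h at 36 h. They were 21.2%, 23.3% and 36.8% at 60 h, and 5.02%, 16.8% and 23.4% at 84 h. From 84 to 96 h of the 2iL course 0 of the 12 rose and 4 fell. Nanog had means of 10.2 and 17.8 CPM there and did not pass (adjusted p = 0.16, edgeR). Genes of the 3 inputs moved in these spans too. In the 2i course, Sp5 rose from 0 CPM at 36 h to 11.4 CPM at 84 h, and Axin2 from 2.37 to 12.8 CPM. Stat3 (7.4 to 17.7 CPM) and Socs3 (0 to 3.10 CPM) rose there as well. Lef1, Tcf7l1, Spry4, Etv4 and Etv5 fell there, and Dusp6 did not pass. From 84 to 96 h of the 2iL course Sp5 rose (0.263 to 3.81 CPM) and Lef1, Spry4, Etv4 and Etv5 fell. The part of these genes, of the other naive genes, or of the markers of other cell types, in the Tbx3 return was not tested. The return left Tbx3 at 6.62% of 0 h in 2iL and 9.59% in 2i. With the strand of counting not stated, it cannot be assigned to Tbx3 apart from Tbx3os1.

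The other genes of the network were counted beside the members. Of 12 other naive genes, 5 were higher in 2iL at 0 h (Klf4, Klf5, Fbxo15, Gbx2 and Tet2) and 0 lower. Of all tested genes, 4.69% were higher and 3.78% lower. At 2i 12 h, 4 of the 12 fell (Nanog, Klf2, Tdh and Fbxo15) and 3 rose (Tet2, Morc1 and Fgf4). In that contrast 5.59% of tested genes fell and 6.08% rose. At 2iL 24 h, 3 fell (Nanog, Klf2 and Tdh) and 1 rose (Tet2), where 7.0% of tested genes fell and 5.53% rose. At 2iL 96 h 11 of 12 were lower, all but Gbx2, and at 2i 84 h 10 were lower and Gbx2 was higher. Of tested genes, 20.1% were lower at 2iL 96 h and 16.4% at 2i 84 h, where 2127 of 11849 were higher. The median log2 fold change of the 12 was -5.16 at 2iL 96 h and -4.96 at 2i 84 h. Nanog, the homeobox factor of the naive core, had 70.0 and 89.0 CPM at 2iL 24 h, against 179 and 209 CPM at 0 h. Of the 5 formative genes, 5 had risen by 2i 12 h (6.08% of tested genes) and 4 by 2iL 24 h (5.53%). Of 4 genes of the beta-catenin arm, Axin2 and Sp5 fell at 2i 12 h (5.59% of tested genes). Lef1 and Tcf7l1 did not pass the test. Genes of the ERK arm differed among themselves at 2i 12 h. Etv4 and Spry4 rose (log2 fold changes of 3.11 and 2.85), Etv5 fell (-0.64) and Dusp6 did not pass. The 2 genes of the LIF arm, Stat3 and Socs3, were higher in 2iL at 0 h (4.69% of tested genes). At 2iL 24 h neither passed the test against 0 h (-0.16 and 0.29, adjusted p = 0.75 and 0.78, edgeR). Both were lower at 2iL 96 h (-2.65 and -3.80, 20.1% of tested genes). Of the other 2 arms, Sp5 and Etv4 were also higher in 2iL at 0 h, Lef1 was lower (3.78% of tested genes), and the rest did not pass.

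Over the 16 group means of log2 CPM, Pearson's r between members ran from 0.586 (Nr0b1 and Prdm14) to 0.973 (Esrrb and Nr5a2), a description over points that share course and time. Among 8244 other genes, the pattern most like Esrrb was that of Stk38 (r = 0.98), and most like Tcl1 that of Spp1 (0.98). Tbx3 was most like Nanog (0.94). Zfp42 was most like Mtf2 (r = 0.984) and then Hspb1 (0.981), both on chromosome 5. Triml2, which lies 101182 bp from Zfp42 on chromosome 8, came after them (r = 0.98).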

How the data were processed

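Members and gene lists were chosen with earlier results of these data known. Per the labels, libraries were NEGEDIA Digital mRNAseq, a 3' method on poly(A) RNA. Reads were handled with STAR 2.6.0a, HTSeq and bcl2fastq on mm10, per the submitters' processing notes, and the annotation release is not given in the sources used here. The authors deposited counts per gene for each library, and a CPM table that matched the counts to within 4.7e-10. Reads outside genes (23.4% to 55.4% of unique reads) were left out.

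Symbols and positions came from GENCODE M21. A single edgeR 4.0.16 fit (R 4.3.3, TMM, quasi-likelihood) held 31 libraries in 16 groups, with 15 residual degrees of freedom and a common dispersion of 0.0211. Genes needed 10 counts at the median depth in 2 libraries and 15 in all, which left 11849. Benjamini-Hochberg adjustment ran over these, with calls at 0.05. Each SE was the size of the log2 fold change divided by the square root of F. The fit was tested on simulated data. DESeq2 1.42.0, other scalings, no filter, left-out libraries and single-course fits were alternatives. The contrast of 84 with 36 h and library-size scaling were added after the data were seen. Named genes were the 9 members, the network lists, and for each member the 3 genes most like it by Pearson's r over group means with mean log2 CPM of at least 3. The STAT motif was first searched as TTCCNNGAA and then in the wider form, and both matched 1 of 8 windows.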

Additional observations from a re-analysis of the deposited data

Results flagged for a closer look

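The change from 0 h differed between the 2iL and 2i courses by the joint edgeR test over the 6 shared times for 7 members. The adjusted p was 6.9e-12 for Tbx3, 4.7e-10 for Nr5a2, 1.3e-09 for Zfp42, 7.1e-09 for Tfcp2l1, 3.1e-07 for Esrrb, 0.00039 for Tcl1 and 0.049 for Dppa3.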

How the results depend on the processing

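All 9 members were lower at 2iL 96 h in every alternative run. The count lower at 2iL 24 h, 5 in the fit reported, was 3 when only the 2iL course was fitted, 4 by DESeq2, and 6 with library-size scaling or without the 4 libraries that stand apart. Leaving out single libraries gave 3 to 6 lower at 2iL 24 h, 4 to 5 at 2i 12 h, 7 to 8 at 2i 24 h, 8 to 9 at 2i 84 h, 2 to 3 higher in 2iL at 0 h, and 6 to 8 with a difference between courses. Over all genes, calls at 0 h (1004) became 1697 without the 4 libraries and 1984 with the 0 h libraries alone, and those at 2iL 24 h (1485) 2431 and, in the 2iL course alone, 922. Calls at 2i 12 h (1383) became 2222 in the 2i course alone. Single omissions gave as few as 532 at 0 h, 641 at 2i 12 h, 1277 at 2i 24 h, 2619 at 2i 84 h and 711 at 2iL 24 h. Causes were not tested. Whether libraries with the same replicate number share more than the number is not stated. Over 105 pairs of groups the deviations correlated at -0.413 to 0.449 (median 0.0042), and 10 pairs were over 0.1. With the replicate number as a block, 6 members differed between courses, Dppa3 being lost (adjusted p = 0.055). The block also ended the calls for Prdm14 between 2iL and 2i at 24 h (0.056, which leaves 7 of 9), Dppa3 between 2iL and 2i at 60 h (0.052) and Nr0b1 at 2iL 36 h (0.067), and no other member call. Depth limits Prdm14 (83 counts), Nr0b1 (411) and Dppa3 (466) most.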
